A study of Mus musculus with 6 samples.

Results

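Described here are the transcripts of 47 DEAD and DEAH box RNA helicase genes in J774A.1 cells, 15 with Dhx symbols and 32 with Ddx symbols, among 22180 genes measured. The members were taken by symbol, leaving out the viral RNA sensors Ddx58, Dhx58 and Ddx60, with the brightest array feature kept for each gene. The symbol rule also takes in Ddx11, a DNA helicase. The family itself was chosen by an earlier reading of these same arrays, in which Dhx genes were higher after neuropeptide FF (NPFF). Differences between NPFF and control cells are therefore given as a description, with no test on the members. RefSeq lists 50 protein-coding mouse genes under the same naming rule; Ddx3y, Ddx19a and Ddx49 had no feature of their own and were not analysed here.

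RNA helicases of this family use ATP to unwind or remodel RNA and to strip proteins from it. They are named after a run of amino acids in the ATP-binding core, Asp-Glu-Ala-Asp in the DEAD class and most often Asp-Glu-Ala-His in the DEAH class. DEAD box proteins pry apart short duplexes locally, whereas DEAH box proteins move along a strand, often switched on by cofactors with a glycine-rich G-patch. Together they act in splicing, ribosome assembly, mRNA export, translation and decay, and several also take part in nucleic acid sensing in macrophages.

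The NPFF group was 3 cultures given the peptide at 1 nM in phosphate-buffered saline (PBS) for 18 h, and the control group was 3 cultures given the PBS vehicle for 18 h. The control titles call these cells non-treated. Both groups were J774A.1 cells, a macrophage-like line of Balb/c mouse origin, grown in RPMI-1640 with 10% serum to 80% confluence; every result thus comes from a single line. NPFF is an amidated neuropeptide that acts on G-protein-coupled receptors, and the study asked which transcripts differed after it. The labels call the replicates biological without saying how their cultures were separated, so p-values measure only the spread between these samples, which may be technical. Of 8 macrophage markers, 7 lay above the 90th percentile of signal over all genes and Mertk lay at 58.8, whereas 14 markers of fibroblasts, epithelial cells, lymphocytes and granulocytes lay between 10.2 and 62.7. Summed over the 8 macrophage markers, the log2 level was 85.9 to 86.8 in the NPFF arrays and 83.9 to 86.8 in the controls. Over the 14 other markers the summed level was 84.6 to 85.0 in the NPFF arrays and 83.4 to 85.1 in the controls.

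Control 1 stood apart from the other arrays before any gene was considered. The SD over genes of its log2 distance from the mean of the other 5 arrays was 0.37, against 0.11 to 0.13 for the NPFF arrays, 0.21 for control 2 and 0.12 for control 3. As deposited it also had the narrowest interquartile range, 2.04 against 2.31 to 2.41 in the others. The part of this in the results below was not tested; values without control 1 stand beside the class, role and partner list results and the largest single differences.

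Both helicase classes were low in control 1, the Dhx class more so. The median log2 deviation of the 15 Dhx genes from each gene's own 6-array mean was 0.08, 0.07 and 0.04 in the NPFF arrays, against -0.34, 0.05 and 0.05 in controls 1, 2 and 3. For the 32 Ddx genes it was 0.02, 0.06 and 0.00 in the NPFF arrays, against -0.20, 0.03 and 0.05 in the controls. Controls 2 and 3 thus lay among the NPFF arrays in both classes, and control 1 lay below them all. Over all genes the median deviation of control 1 was -0.07, and over genes in the upper quartile of signal, a set added after the data were seen because most members are bright, it was -0.13. Control 1 was the lowest of the 6 arrays for 12 of 15 Dhx genes and 24 of 32 Ddx genes. It was the lowest for 48.9% of all genes and for 56.7% of genes in the upper signal quartile.

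**Figure D1:**
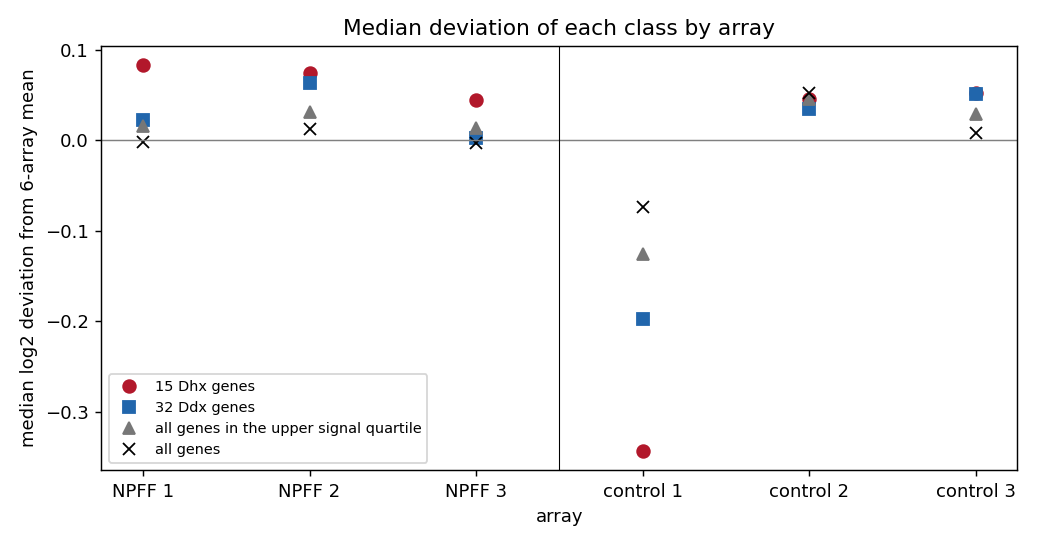
Median log2 deviation from the 6-array mean (vertical axis) in each array (horizontal axis) for the 15 Dhx genes, the 32 Ddx genes, all genes of the upper signal quartile and all genes. Control 1 lies at -0.34 for Dhx and -0.20 for Ddx, and the other 5 arrays lie between 0.00 and 0.08 in both classes.

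With all 6 arrays, 14 of 15 Dhx genes had a higher mean in NPFF cells than in control cells, as did 26 of 32 Ddx genes and 51.7% of all genes. The median difference, NPFF minus control, was 0.17 log2 for Dhx and 0.07 for Ddx, a gap of 0.10 between the classes. It was 0.00 over all genes and 0.04 over the upper signal quartile. NPFF arrays all lay above the controls in 2 Dhx genes, Dhx9 and Dhx33, and 2 Ddx genes, Ddx11 and Ddx39b, where 3.67% of all genes did so; no member had all NPFF arrays below the controls, where 4.92% of all genes did. By limma over all 22180 genes, none passed an adjusted p under 0.05 (0%) and 556 had an unadjusted p under 0.05. A plain two-sample test gave 0 genes at an adjusted p under 0.05 and 724 at an unadjusted one. In a bulk culture, a change in RNA per cell cannot be told apart from a change in the share of cells that hold it.

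Set against one control at a time, the Dhx genes were clearly higher against control 1 and close to level with the others. The median difference of the Dhx class was 0.41 against control 1, 0.05 against control 2 and 0.01 against control 3. For the Ddx class the same medians were 0.23, 0.01 and -0.03. The gap between the classes was 0.18 against control 1 and 0.04 against either of the others. Dhx genes were higher in 13, 9 and 9 of 15 cases against controls 1, 2 and 3, and Ddx genes in 27, 17 and 12 of 32 cases, while the shares of all genes were 62.6%, 35.8% and 48%. These comparisons share the NPFF arrays, so they do not check one another.

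**Figure D2:**
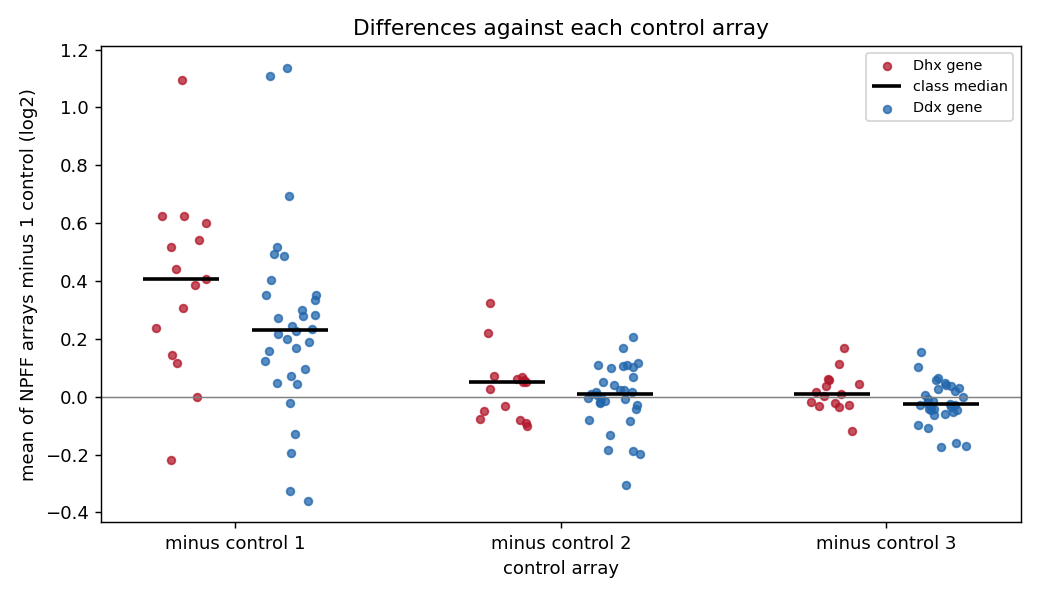
Mean of the 3 NPFF arrays minus each control array (vertical axis, log2) for every Dhx and Ddx gene, with the control on the horizontal axis; bars mark class medians. Against control 1 the medians are 0.41 for Dhx and 0.23 for Ddx, and against control 3 they are 0.01 and -0.03.

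Without control 1, the median difference was 0.02 for Dhx, with 9 of 15 genes higher, and 0.00 for Ddx, with 16 of 32 higher. Over all genes it was -0.02, with 39.1% of genes higher. The sign turned in 19 of the 47 members. The mean of the NPFF arrays lay above every one of the 3 controls in 6 Dhx genes, namely Dhx9, Dhx15, Dhx29, Dhx33, Dhx34 and Dhx37, and in 7 Ddx genes, namely Ddx3x, Ddx11, Ddx19b, Ddx21, Ddx24, Ddx39b and Ddx43. Of all genes, 11.9% did so. Spread within groups was unequal: the median SD of a Dhx gene was 0.05 over the NPFF arrays and 0.23 over the controls, and of a Ddx gene 0.07 and 0.17. The SD was larger over the controls in 14 of 15 Dhx and 28 of 32 Ddx genes, where this held for 80.4% of all genes.

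**Figure D3:**
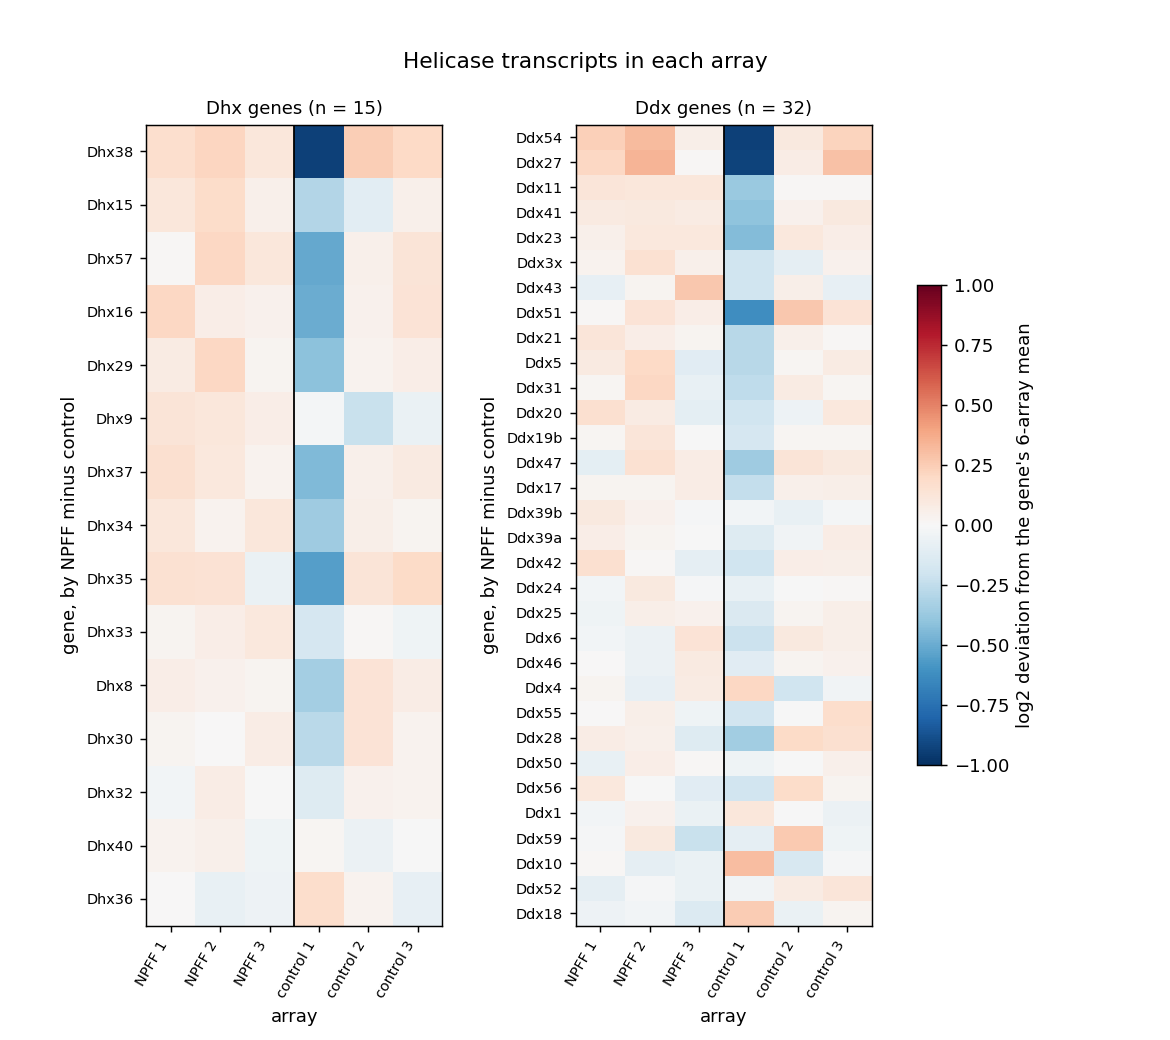
Log2 deviation of each of the 47 genes (rows, ordered by NPFF minus control) from its own 6-array mean in each array (columns). Control 1 is the lowest array in 36 of the 47 genes and the highest in 5; control 2 is the lowest in 5, NPFF 3 in 3, NPFF 1 in 2 and control 3 in 1.

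Among the spliceosome helicases of the DEAH class, Dhx38, which remodels the catalytic centre between the splicing steps, had the largest difference and also the least even controls. Its log2 level was 7.49, 7.54 and 7.43 in the NPFF arrays, against 6.39, 7.57 and 7.52 in the controls. Controls 2 and 3 lay within or above the NPFF range and control 1 lay more than 1 log2 below, so the difference of 0.33 (SE 0.31) became -0.06 without control 1. Dhx15, which takes spent spliceosomes apart and also serves ribosome assembly, stood at 10.41, 10.48 and 10.34 in the NPFF arrays, against 10.00, 10.19 and 10.35 in the controls. Only NPFF 3 fell below a control, control 3, and the difference of 0.23 (SE 0.10) was 0.14 without control 1. Dhx16, which activates the assembled spliceosome, was 8.82, 8.67 and 8.66 in NPFF arrays and 8.12, 8.65 and 8.75 in controls. Dhx8, which releases spliced mRNA, was 8.35, 8.33 and 8.31 in NPFF arrays and 7.94, 8.42 and 8.36 in controls. In both genes control 1 alone was low; without it their differences of 0.21 and 0.09 were 0.01 and -0.06. Dhx35, found in human spliceosomes, was 8.47, 8.46 and 8.25 in NPFF arrays and 7.77, 8.44 and 8.51 in controls, a difference of 0.15 that was -0.08 without control 1. Dhx32, less studied and counted with splicing only by the role list used here, varied little. Its level was 7.72, 7.82 and 7.74 in NPFF arrays and 7.62, 7.79 and 7.78 in controls.

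Dhx9, or RNA helicase A, which unwinds double-stranded RNA and RNA-DNA hybrids, was among the few of its class not lowest in control 1, with Dhx36 and Dhx40. Its level was 10.33, 10.31 and 10.27 in the NPFF arrays, against 10.19, 9.98 and 10.14 in the controls. Every NPFF array lay above every control, and the lowest control was control 2 rather than control 1. The means were 10.30 ± 0.03 in NPFF and 10.10 ± 0.11 in control (SD, n = 3 each), a difference of 0.20 (SE 0.07), or 1.15-fold, which was 0.25 without control 1 and 0.14 without control 2. The 300 bases around its start, chr1:153487611-153487910 on the minus strand of GRCm38.p6, are shown with those of Dhx15, chr5:52190497-52190796 on the minus strand, as 2 Dhx genes whose NPFF mean lay above each control. Both windows run from 250 bases before to 50 after the start and come from RefSeq; capitals mark letters searched for in all promoters as described below.
Dhx9: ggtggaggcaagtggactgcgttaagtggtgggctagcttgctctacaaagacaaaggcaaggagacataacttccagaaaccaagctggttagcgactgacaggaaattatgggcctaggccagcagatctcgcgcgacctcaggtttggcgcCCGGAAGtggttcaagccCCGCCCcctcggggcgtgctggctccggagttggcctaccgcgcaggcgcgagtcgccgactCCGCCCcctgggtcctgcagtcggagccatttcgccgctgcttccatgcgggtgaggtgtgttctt
Dhx15: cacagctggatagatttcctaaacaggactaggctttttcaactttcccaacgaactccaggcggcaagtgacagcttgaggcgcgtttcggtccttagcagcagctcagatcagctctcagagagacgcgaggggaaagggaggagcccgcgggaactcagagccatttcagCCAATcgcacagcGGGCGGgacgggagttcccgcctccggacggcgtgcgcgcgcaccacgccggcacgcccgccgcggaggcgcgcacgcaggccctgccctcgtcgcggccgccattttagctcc

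The nucleolar and mitochondrial members of the DEAH class had all-array differences of 0.07 to 0.20. Dhx33, a nucleolar helicase of rRNA synthesis, stood at 9.36, 9.39 and 9.43 in the NPFF arrays, against 9.16, 9.34 and 9.28 in the controls. The groups did not overlap, though NPFF 1 and control 2 lay close together, and the difference of 0.13 (SE 0.07) was 0.08 without control 1. Dhx37, needed for maturation of the small ribosomal subunit, was 8.70, 8.65 and 8.57 in NPFF arrays and 8.10, 8.59 and 8.63 in controls, a difference of 0.20 that was 0.03 without control 1. Dhx30, which serves the mitochondrial ribosome, was 7.80, 7.78 and 7.85 in NPFF arrays and 7.50, 7.91 and 7.81 in controls. In both genes the groups overlapped, with control 1 lowest.

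Of the 3 DEAH helicases of translation and mRNA decay, Dhx29 and Dhx34 were lowest in control 1 and Dhx36 was not. Dhx29, which helps ribosomes scan structured leaders, was 8.68, 8.80 and 8.63 in NPFF arrays and 8.19, 8.64 and 8.67 in controls, a difference of 0.21 that was 0.05 without control 1. Dhx34, a factor of nonsense-mediated decay, was 7.33, 7.25 and 7.33 in NPFF arrays and 6.86, 7.27 and 7.25 in controls, a difference of 0.17 that was 0.04 without control 1. Dhx36, which resolves G-quadruplexes, was 9.04, 8.96 and 8.99 in NPFF arrays and 9.22, 9.07 and 8.95 in controls. With all arrays it was the 1 Dhx gene with a lower NPFF mean, by -0.08, which was -0.02 without control 1. It was also the 1 Dhx gene highest in control 1. The less studied Dhx57 was 9.29, 9.50 and 9.40 in NPFF arrays and 8.77, 9.34 and 9.42 in controls. Its difference of 0.22 was 0.02 without control 1. Dhx40 was even throughout, with 8.03, 8.05 and 7.95 in NPFF arrays and 8.01, 7.94 and 7.99 in controls.

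**Figure D4:**
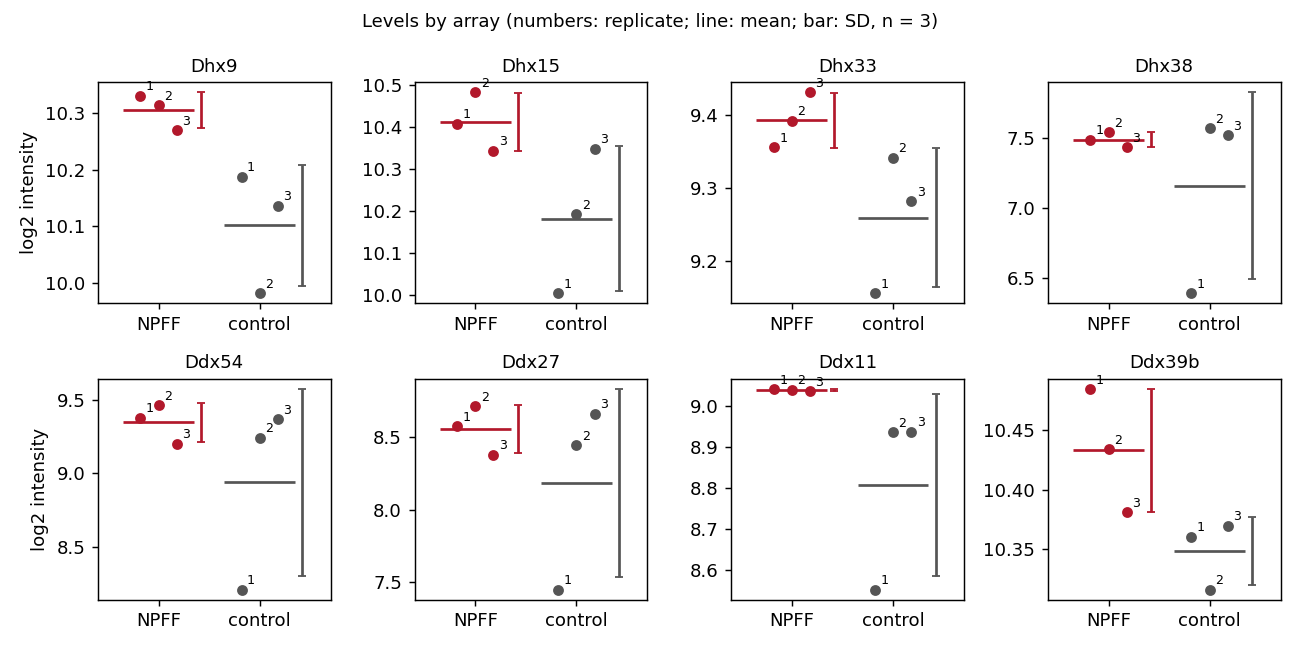
Log2 intensity (vertical axes, each with its own range) of 8 helicase genes in the 3 NPFF and 3 control arrays; digits give the replicate, lines the group mean and bars the SD. In Dhx38, Ddx54 and Ddx27 control 1 lies far below controls 2 and 3, whereas in Dhx9 and Ddx39b the lowest array is control 2.

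Of the DEAD class, the 2 largest differences were in nucleolar helicases of large ribosomal subunit assembly. Ddx54 stood at 9.38, 9.46 and 9.20 in the NPFF arrays, against 8.21, 9.24 and 9.37 in the controls. Ddx27 stood at 8.58, 8.71 and 8.38 in the NPFF arrays, against 7.45, 8.45 and 8.66 in the controls. Both were more than 1 log2 below the NPFF mean in control 1, lowest among NPFF arrays in NPFF 3, and level with NPFF in controls 2 and 3. Their differences of 0.41 (SE 0.30) and 0.37 (SE 0.31) were 0.04 and 0.00 without control 1. Their start windows, chr5:120612880-120613179 and chr2:167015063-167015362, both on the plus strand of GRCm38.p6, are shown as those of the 2 Ddx genes with the largest differences; capitals have the same meaning as above.
Ddx54: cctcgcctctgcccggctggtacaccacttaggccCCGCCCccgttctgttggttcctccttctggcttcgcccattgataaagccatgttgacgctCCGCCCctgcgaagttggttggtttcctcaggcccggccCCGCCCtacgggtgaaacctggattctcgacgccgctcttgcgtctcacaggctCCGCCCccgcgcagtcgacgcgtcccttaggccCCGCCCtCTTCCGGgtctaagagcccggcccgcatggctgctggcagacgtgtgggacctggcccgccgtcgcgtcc
Ddx27: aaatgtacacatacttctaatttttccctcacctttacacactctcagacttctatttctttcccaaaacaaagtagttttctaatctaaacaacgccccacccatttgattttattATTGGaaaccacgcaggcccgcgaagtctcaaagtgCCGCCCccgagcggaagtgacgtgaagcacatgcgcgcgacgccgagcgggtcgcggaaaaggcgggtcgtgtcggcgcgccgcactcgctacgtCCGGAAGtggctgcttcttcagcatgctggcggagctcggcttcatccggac

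The other nucleolar members had smaller differences of both signs. Of 15 helicases of ribosome assembly, Dhx33 and Dhx37 included, 11 were higher in NPFF, 11 were lowest in control 1, 5 were higher against control 3, and 7 were higher without control 1. Ddx21, a nucleolar helicase that couples rRNA synthesis and processing, was 10.87, 10.82 and 10.78 in NPFF arrays and 10.47, 10.81 and 10.77 in controls. Its difference of 0.14 was 0.04 without control 1. Its close relative Ddx50 was 8.49, 8.63 and 8.58 in NPFF arrays and 8.52, 8.56 and 8.61 in controls, without the low value in control 1 that Ddx21 had. The lowest differences of the family were -0.14 for Ddx18, -0.11 for Ddx52 and -0.09 for Ddx10, all rRNA-processing helicases, and -0.09 for Ddx59. Ddx18 was 8.83, 8.85 and 8.74 in NPFF arrays and 9.14, 8.82 and 8.91 in controls, and Ddx10 was 8.82, 8.72 and 8.74 in NPFF arrays and 9.12, 8.65 and 8.79 in controls. These 2 genes were highest in control 1, the reverse of most members, and without it their differences were -0.05 and 0.04. Ddx52 was 8.27, 8.34 and 8.29 in NPFF arrays and 8.32, 8.43 and 8.47 in controls, with NPFF 2 above control 1. Ddx59 was 7.30, 7.41 and 7.09 in NPFF arrays and 7.22, 7.57 and 7.26 in controls. Without control 1, Ddx52 and Ddx59 lay further below, at -0.15 each.

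The role list for splicing held 13 helicases of both classes, the less studied Dhx32 included. With all arrays 13 had a higher NPFF mean, but 5 did against control 2 alone and 3 against control 3 alone. Without control 1, 5 did, and control 1 was the lowest array in 12. Ddx23, a helicase of the spliceosomal tri-snRNP, was 9.09, 9.14 and 9.15 in NPFF arrays and 8.61, 9.15 and 9.10 in controls. Ddx41, which works in splicing and has been described as a DNA sensor, was 9.18, 9.18 and 9.16 in NPFF arrays and 8.68, 9.12 and 9.18 in controls. In both, NPFF arrays differed by under 0.1 log2 among themselves and controls 2 and 3 lay with them; without control 1 the differences were -0.00 and 0.02. The paralogues Ddx5 and Ddx17, coregulators of transcription and splicing, were alike in control 1 but not in NPFF 3. Ddx5 was 10.77, 10.88 and 10.56 in NPFF arrays and 10.40, 10.70 and 10.76 in controls, and Ddx17 was 10.32, 10.33 and 10.37 in NPFF arrays and 10.06, 10.35 and 10.36 in controls.

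Ddx39b, which loads export factors onto spliced mRNA, stood at 10.48, 10.43 and 10.38 in the NPFF arrays, against 10.36, 10.32 and 10.37 in the controls. The groups did not overlap, though NPFF 3 and control 3 lay close together, and the difference was 0.08 (SE 0.06). Its 2 dimmer features went the other way, with differences of -0.08 and -0.05. Its paralogue Ddx39a was 8.04, 8.01 and 7.97 in NPFF arrays and 7.85, 7.94 and 8.05 in controls, with overlap. Second features of Ddx18 and Ddx21 gave 0.02 and 0.04, beside -0.14 and 0.14 for the brighter ones. Ddx11, a DNA helicase of sister chromatid cohesion, was 9.04 in each NPFF array, against 8.55, 8.94 and 8.94 in the controls. Its difference of 0.23 (SE 0.11) was 0.10 against control 2 or control 3.

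Among the rest, Ddx3x, a helicase of translation initiation, was 9.53, 9.64 and 9.54 in NPFF arrays and 9.29, 9.40 and 9.53 in controls, a difference of 0.16 that was 0.10 without control 1. Ddx1, part of the tRNA ligase complex and the brightest feature of the family, was 11.26, 11.32 and 11.22 in NPFF arrays and 11.39, 11.28 and 11.23 in controls. Ddx6, a translational repressor of processing bodies, had a difference of 0.04, Ddx20 of the SMN complex 0.10 and the export helicase Ddx19b 0.09. Germ-line helicases served as low-signal members: Ddx4 and Ddx25 lay at signal percentiles 17.3 and 17.2, with differences of 0.02 and 0.04. Ddx43 lay at 65.2 with a difference of 0.15, which was 0.05 without NPFF 3 and 0.09 without control 1. NPFF 3 stood at 7.74, beside 7.39 and 7.50 in the other NPFF arrays and 7.27 to 7.52 in the controls. The remaining members, not named with values, had differences between -0.01 and 0.15 with all arrays. Without control 1 their differences lay between -0.17 and 0.01.

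The start windows of the members were mostly GC-rich, and none held TATAAA. RefSeq windows were matched for 42 of the 47 genes, 14 Dhx and 28 Ddx, taking the first listed start of each gene. Dhx38, Ddx6, Ddx11, Ddx23 and Ddx39a had no matched window. The median GC content was 61.7% for Dhx and 61.2% for Ddx, against 52.7% over 27025 promoters. Single windows ranged from 42.7% to 67% for Dhx and from 47.3% to 75% for Ddx, so some lay below the all-promoter median. The median number of CpG dinucleotides was 24 for Dhx and 26 for Ddx, against 7. Letters were searched on both strands, and matches may share bases. CCGGAAG, the core bound by ETS factors, was present in 8 of 14 Dhx and 9 of 28 Ddx windows, and in 9.12% of all promoters. GGGCGG, the GC box, was present in 9 of 14 and 19 of 28, against 35.9% of all promoters, and CCAAT in 5 of 14 and 16 of 28, against 37.9%. CACGTG, the E-box, was present in 3 of 14 and 2 of 28, against 7.24%, and GCATGCGC, part of the NRF1 site, in 3 of 14 and 2 of 28, against 2.80%. TATAAA was present in no member window, against 14.2% of all promoters. The windows of Ddx54, Ddx27 and Dhx9 printed above hold the ETS letters and that of Dhx15 does not. A match is a description of letters, and the higher GC content of the members moves with several of these shares; its part was not tested.

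Partners of the helicases were taken from lists. None of their genes passed limma, and neither did any other of the 22180 genes. Beside the list counts below, 51.7% of all genes were higher in NPFF with all arrays, and 39.1% without control 1. The list of G-patch proteins, some of which switch on DEAH helicases, had 17 measured genes. Of these, 12 were higher in NPFF, with a median difference of 0.08. Without control 1, 6 were higher and the median was -0.03. Zgpat and Sugp1 had the highest differences, 0.27 and 0.25, and Pinx1 and Gpatch1 the lowest, -0.06 each. Zgpat was 7.55, 7.57 and 7.47 in NPFF arrays and 6.83, 7.43 and 7.53 in controls, again low in control 1 alone; without it Zgpat differed by 0.05 and Sugp1 by -0.01. Spliceosome partners divided 10 to 10 with a median of -0.0042, from Eftud2 at 0.33 and Syf2 at 0.20 to Prpf18 at -0.10 and Cwc22 at -0.11; without control 1, 9 of 20 were higher and the median was -0.01. Eftud2, a GTPase that works beside the helicases, was 10.32, 10.36 and 10.34 in NPFF arrays and 9.51, 10.18 and 10.33 in controls. Without control 1, Eftud2 differed by 0.08 and Syf2 by 0.00. Export and exon junction partners were higher in 7 of 11 cases, with a median of 0.09; without control 1, 5 were higher and the median was -0.04. Gle1, which activates the export helicase Ddx19 proteins, was 9.84, 9.93 and 9.75 in NPFF arrays and 9.50, 9.54 and 9.69 in controls. Its groups did not overlap, and its difference of 0.26 (SE 0.08) was 0.22 without control 1. Eif4a3 followed at 0.15, which was -0.10 without control 1. Thoc2 and Nup214 were lowest at -0.07 and -0.16, both -0.07 without control 1. NPFF arrays all lay above the controls in 2 of 17 G-patch genes, 1 of 20 spliceosome partners and 1 of 11 export partners, Gle1. Of all genes, 3.67% did so. They all lay below the controls in 1 spliceosome partner, Cwc22, where 4.92% of all genes did.

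Of 5 partners of the translation helicase eIF4A, 3 were higher, with Eif4h at 0.43, Eif4b at 0.23 and Eif4g3 and Eif4g2 at -0.01 and -0.02. Eif4h was 11.07, 11.14 and 10.96 in NPFF arrays and 9.94, 10.92 and 11.03 in controls. Without control 1, Eif4h differed by 0.09 and Eif4b by 0.02, 3 of 5 were higher, and the list's median of 0.03 was 0.02. Of 10 partners of Ddx6 in mRNA storage and decay, 6 were higher, from Lsm14b at 0.30 and Dcp2 at 0.21 to Eif4enif1 at -0.09 and Dcp1b at -0.14, with a median of 0.03. Without control 1, 1 of 10 was higher and the median was -0.04, with Lsm14b at -0.00, Dcp2 at 0.08 and Dcp1b at -0.29. Of 6 SMN complex genes that work with Ddx20, 2 were higher, Gemin6 at 0.05 and Gemin7 at 0.01, and Gemin5 and Smn1 were lowest at -0.04 and -0.05; the median was -0.03. Without control 1, Gemin6 alone was higher, at 0.14, and the median was -0.08. RNA helicases outside the naming rule, the viral RNA sensors among them, were higher in 6 of 16 cases with a median of -0.05, and in 2 of 16 with a median of -0.06 without control 1. Skiv2l, of the cytoplasmic exosome cofactor, had 0.34 and the mitochondrial helicase Supv3l1 0.28, while Ifih1 had -0.11 and Ascc3 -0.17. Without control 1 these were 0.02, 0.11, -0.06 and -0.11. NPFF arrays all lay above the controls in 1 of these 16 genes, Supv3l1, where 3.67% of all genes did so. They all lay below in 3, Ascc3, Dicer1 and Ddx60, where 4.92% of all genes did. Skiv2l was 8.33, 8.41 and 8.40 in NPFF arrays and 7.40, 8.29 and 8.42 in controls, so control 1 alone was low there too.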

How the data were processed

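Transcript levels were measured on 6 Affymetrix whole-transcript arrays of J774A.1 cells, 3 per group, from 500 ng of RNA each, per the labels' protocols. The deposited values are log2 intensities per feature, read as such from their range of 4.59 to 14.0; what the authors did before that (scanner software, background, normalization, build) is not given in the sources used. Of 33794 features, the platform annotation pairs 23521 with 1 symbol, 1814 with several and 8459 with none. The sorted values of the arrays departed from their mean by up to 0.17 log2, so quantile normalization was applied over all features. The brightest feature was kept per gene, giving 22180 genes with no filter on dim ones. The limma package (3.58.1, under R 4.3.3) fitted group as the sole term, and its two-sided p-values were adjusted by Benjamini-Hochberg across the 22180 genes at a threshold of 0.05. Each SE comes from that fit, each SD from a group's 3 arrays. Arrays have no counting depth, and their number limits the precision. The code was tested on simulated data. Members, role lists and partner lists were chosen with earlier results of these data known. Named were all Dhx genes, Ddx genes without overlap, the 4 highest, lowest and brightest Ddx genes, paralogue pairs, and the 2 highest and lowest partners of each list; other members and arrays shown per gene were picked after their values were seen. Same-numbered arrays of the groups had deviations correlated at 0.23, 0.45 and -0.33 across genes, so the replicate numbers were not taken to pair them. Alternatives were other normalizations, the mean over features, a filter removing the dimmest 25% of genes, the replicate number as a block, and arrays left out.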

Additional observations from a re-analysis of the deposited data

How the results depend on the processing

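Class values kept their direction under the values as deposited, median centring, cyclic loess, the mean over features, removal of the dimmest genes and the class mean, where Dhx lay between 0.14 and 0.17 and Ddx between 0.05 and 0.09. They changed with control 1. With single arrays left out, the gap between the class medians ranged from 0.019 to 0.148, the number of Dhx genes higher from 9 to 14 and of Ddx genes from 16 to 27, each lowest without control 1. Against control 1, 2 or 3 alone the Dhx median was 0.408, 0.0492 and 0.00951, the Ddx median 0.230, 0.00830 and -0.0265, their gap 0.177, 0.0409 and 0.0360, and the median of all genes 0.0727, -0.0429 and -0.00; Dhx genes higher numbered 13, 9 and 9 and Ddx genes 27, 17 and 12. Over all genes, 0 passed limma in every setting with at least 2 controls. With single arrays left out, the count at an unadjusted p under 0.05 ranged from 235 to 2397, against 556 with all arrays, and the count without overlap from 3026 to 6049, against 1904. Both were highest without control 1. The count without overlap was 3026 to 3621 without an NPFF array and 4277 and 4161 without control 2 and control 3. Leaving out any array makes non-overlap easier to reach, so a rise of this count over 1904 was fixed in advance. With the replicate number as a block, 0 genes passed and 396 had an unadjusted p under 0.05; no class value can move in this balanced design, and NPFF 3 did not correlate best with control 3. The sign of a member's difference turned in 19 of 47 without control 1, 4 without control 2 and 1 without control 3, in 2, 3 and 6 without NPFF 1, 2 and 3, and in 2 as deposited and 5 after cyclic loess. The cause of control 1 standing apart was not tested.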
